A study of Homo sapiens with 2 samples.

Results

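The chaperone and mitochondrial protein import genes comprised 52 genes, listed by name and role. They were grouped by symbol and listed role as 33 mitochondrial and 19 cytosolic genes. Where each protein resides was not examined. The mitochondrial genes were 11 chaperones and proteases (HSPD1, HSPE1, HSPA9, TRAP1, GRPEL1, GRPEL2, CLPP, CLPX, LONP1, PHB and PHB2), 14 genes listed with the inner membrane translocases, called TIM (TIMM8A, TIMM8B, TIMM9, TIMM10, TIMM13, TIMM17A, TIMM17B, TIMM21, TIMM22, TIMM23, TIMM44, TIMM50, PAM16 and DNAJC19), and 8 genes named for the outer membrane translocase, called TOM (TOMM5, TOMM6, TOMM7, TOMM20, TOMM22, TOMM34, TOMM40 and TOMM70). The cytosolic genes were the 8 subunits of the chaperonin CCT (TCP1, CCT2, CCT3, CCT4, CCT5, CCT6A, CCT7 and CCT8) and 11 genes of the HSP90 and HSP70 systems (HSP90AA1, HSP90AB1, HSPA4, HSPA8, HSPH1, DNAJA1, DNAJB1, STIP1, BAG1, BAG2 and BAG3). A gene counted as having a peak when its exact symbol stood among the gene features listed for that peak. Of the 1900 peaks in the table, 6 carried a member's symbol, each for a different gene.

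The peaks came from CAL27, an established human tongue cancer line, infected with lentivirus so that it expressed the transcription factor KLF7 with a myc tag. Chromatin was fixed with 1% formaldehyde and sheared, and 1 ChIP library, precipitated with the anti-Myc antibody D3N8F, was compared with 1 input library, made without antibody from the same myc-KLF7 cells. Neither library had a replicate, and cells lacking the tagged protein were not analysed here. The tag is a piece of the MYC protein, so tagged KLF7 and the cells' own MYC cannot be told apart in these peaks.

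KLF7 is a zinc finger factor of the Krüppel-like family, whose members bind GC-rich sequence. MYC with its partner MAX binds the E-box CACGTG and is known to act on genes of protein synthesis, folding and mitochondria. Most mitochondrial proteins are made in the cytosol, kept unfolded by cytosolic chaperones, passed through TOM and then TIM, pulled inward by the mitochondrial HSP70, and folded inside by the HSPD1 and HSPE1 chaperonin. CCT is the ring-shaped chaperonin of the cytosol, best known for folding actin and tubulin.

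The DNA under the summits is shown first, because the member peaks differed in it. Sequences were read from the reference genome GRCh38 in the direction of the gene, 5′ to 3′. Capitals mark CACGTG and the GC box GGGCGG, the latter on either strand, so that it can also read CCGCCC. The stretch around the TCP1 summit held both (chr6:159789005-159789205, minus strand), with the summit at base 101 of 201. The GGGCGG marked in it lies outside the called peak, which holds another GGGCGG beyond the stretch, 643 to 648 bp downstream of the start.

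TCP1: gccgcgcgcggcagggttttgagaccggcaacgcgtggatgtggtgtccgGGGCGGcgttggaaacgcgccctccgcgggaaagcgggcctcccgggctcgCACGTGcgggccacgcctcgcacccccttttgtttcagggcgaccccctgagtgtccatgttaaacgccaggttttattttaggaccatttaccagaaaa

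The peak of TOMM20 (chr1:235128386-235128586, minus strand, summit at base 101) held a GC box and no CACGTG.

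TOMM20: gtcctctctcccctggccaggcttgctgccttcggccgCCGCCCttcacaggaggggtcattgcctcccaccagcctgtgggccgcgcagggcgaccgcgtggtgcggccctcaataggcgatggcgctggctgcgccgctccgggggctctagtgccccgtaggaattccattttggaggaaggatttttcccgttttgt

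The peak of BAG3 lay deep in an intron (chr10:119667981-119668181, plus strand, summit at base 101) and held both motifs side by side.

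BAG3: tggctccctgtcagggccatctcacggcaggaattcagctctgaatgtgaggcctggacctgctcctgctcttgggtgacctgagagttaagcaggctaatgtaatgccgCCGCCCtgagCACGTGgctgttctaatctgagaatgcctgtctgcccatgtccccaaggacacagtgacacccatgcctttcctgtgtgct

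The other peaks overlapped untranslated sequence, and stretches of 30 bases are shown. The CCT2 stretch (chr12:69585402-69585431, plus strand) holds the GC box upstream of that gene's summit. The CCT5 stretch (chr5:10250551-10250580, plus strand) and the CCT8 stretch (chr21:29073593-29073622, minus strand) have the summit at base 16 and hold neither motif. The HSPE1 stretch (chr2:197500345-197500374, plus strand) is shown for contrast, since it holds the E-box at a gene start without a peak.

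CCT2: caggccggggccCCGCCCcccgaagtaggg

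CCT5: aaggtcgagaatctccgtctccctgcggtc

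CCT8: cggtcgcgtgaactgcttcctgcaggctgg

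HSPE1: gggtgattttttCACGTGtcgccagggccg

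Peaks were found at 4 of the 8 genes of the chaperonin CCT and at few other members. The table listed TCP1, CCT2, CCT5, CCT8, TOMM20 and BAG3, which is 6 of 52 members (11.5%, 95% Wilson interval 5.4 to 23%). Among all 20007 protein-coding symbols, 6.18% had an entry, a value inside that interval. The cytosolic group had 5 of 19 genes with an entry (26.3%, 11.8 to 48.8%) and the mitochondrial group 1 of 33 (3.03%, 0.537 to 15.3%), so the 2 intervals overlapped. With 1 ChIP library, no test between the groups was made.

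Within the cytosolic group the entries were unevenly spread. CCT had 4 of 8 subunit genes (21.5 to 78.5%), and the interval lay above the share of all protein-coding genes. This is a description and no test, since genes are not replicates and CCT had the highest share of the families. The HSP90 and HSP70 systems had 1 of 11 (9.09%, 1.62 to 37.7%), and that gene was BAG3. On the mitochondrial side, TOM had 1 of 8 (12.5%, 2.24 to 47.1%), TIM 0 of 14 (at most 21.5%) and the chaperones and proteases 0 of 11 (at most 25.9%). Except for CCT, the interval of each family held the share of all protein-coding genes.

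**Figure D1:**
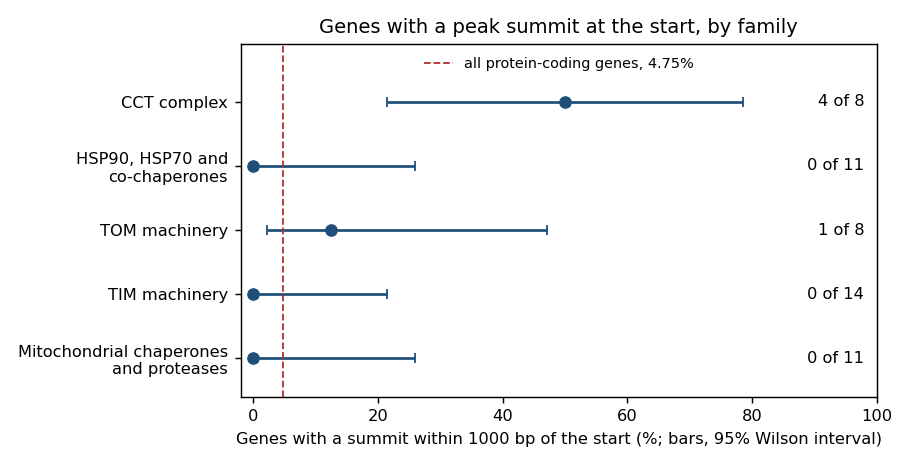
Share of genes with a summit within 1000 bp of the start, in percent (horizontal axis), for each family of members (rows), with points for the shares, bars for 95% Wilson intervals, and a dashed line for all protein-coding genes (4.75%). CCT, with 4 of 8 genes, is the family whose interval lies wholly to the right of the line. Genes are not replicates, so the intervals give counting error and no test.

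No member was called a promoter. The feature given beside the member's own symbol was an intron for TCP1, CCT5, TOMM20 and BAG3. For CCT2 and CCT8 it was an exon and the 5′ untranslated region (5′ UTR). Thus 0 of 52 members had a promoter entry (at most 6.88%) against 2.06% of protein-coding symbols. In 4 of the 6 peaks the word promoter stood beside a neighbour instead, which was MRPL18 at TCP1, the microRNA gene MIR3913-1 at CCT2, FAM173B (now ATPSCKMT) at CCT5 and the small nucleolar RNA gene SNORA14B at TOMM20. The label went with the side of the start on which the summit lay. Among the 394 protein-coding genes with a summit from 0 to 1000 bp downstream of the start, 20 (5.08%) had a promoter entry of their own, against 341 of 558 (61.1%) with the summit upstream.

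Distance to the start therefore gave a fuller count than the label. Starts were those of the MANE Select transcripts, the single agreed transcript per gene, in GENCODE v44. A summit within 1000 bp was found for 5 of 52 members (9.62%, 4.18 to 20.6%), against 4.75% of 20033 protein-coding genes, again a value inside the interval. The 5 genes were TCP1, CCT2, CCT5, CCT8 and TOMM20. CCT had 4 of 8 (21.5 to 78.5%), the whole cytosolic group 4 of 19 (21.1%, 8.51 to 43.3%), the mitochondrial group 1 of 33 (3.03%, 0.537 to 15.3%) and the HSP90 and HSP70 systems 0 of 11 (at most 25.9%). In all 5 genes the summit lay inside the gene, 29 to 497 bp downstream of its start.

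CCT5, a ring subunit of the chaperonin (ENSG00000150753), had the highest pileup of the members. Its peak spanned chr5:10250383-10250880, and 29 ChIP fragments covered the summit at 10250566 (exact Poisson 95% interval 19.4 to 41.6) over a local background of 3.45. The fold enrichment, (pileup + 1) over (background + 1), was 6.74, and the q-value was 7.99e-14. The summit lay in intron 1 of the plus-strand transcript, which has 11 exons, 286 bp from its start and 27 bp from the nearest annotated transcript start. By pileup the peak tied for rank 6.5 of the 815 peaks with a summit within 1000 bp of a protein-coding start, but by fold enrichment it ranked 127, since its local background was also the highest of the member peaks.

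CCT8 (ENSG00000156261) had the shortest of the member peaks. It spanned chr21:29073508-29073795, 288 bp in all, with 16 fragments at the summit (9.15 to 26.0), a background of 1.26, a fold enrichment of 7.53 and a q-value of 1.09e-09. The summit, at 29073607 on a minus-strand gene, lay in the 5′ UTR of exon 1, 41 bp from the start. The table listed no other gene in this peak.

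CCT2 (ENSG00000166226) had the summit closest to its start. The peak spanned chr12:69585394-69585860 with 13 fragments (6.92 to 22.2), a background of 1.57, a fold enrichment of 5.45 and a q-value of 1.68e-05. The summit at 69585488 lay in the 5′ UTR of exon 1, 29 bp downstream of the start.

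TCP1, the subunit after which the complex was first named (ENSG00000120438), had the weakest member peak. It spanned chr6:159788793-159789143 with 9 fragments (4.12 to 17.1), a background of 1.08, a fold enrichment of 4.81 and a q-value of 0.00129, and ranked 1568 of 1900 by q-value. The summit at 159789105 lay in intron 1 of the minus-strand gene, 497 bp from the MANE Select start and 237 bp upstream of the nearest other transcript start. Its Poisson interval did not overlap that of CCT5, whereas those of CCT2 and CCT8 overlapped both. The call lasted at a q-value under 0.01 but not under the other stricter settings. TCP1 dropped out at a q-value under 0.001, at a fold enrichment of at least 5 or at a pileup of at least 10, which left CCT with 3 of 8 genes.

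The other CCT subunits had no summit near their starts. The nearest summit was 20005 bp upstream of the start of CCT7, 162727 bp upstream for CCT3, 349913 bp downstream for CCT4 and 942334 bp upstream for CCT6A. All 4 belong to the same ring as the subunits with a peak, so the peaks divided the genes of 1 complex into 4 with and 4 without.

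TOMM20, a receptor that recognises targeting signals at the outer membrane (ENSG00000173726), was the mitochondrial gene with a peak. The peak spanned chr1:235128288-235128651 with 18 fragments (10.7 to 28.4), a background of 1.32, a fold enrichment of 8.2 and a q-value of 1.46e-11. By fold enrichment it stood highest of the member peaks, at rank 104 of 1900 and rank 36 of the 815 near a start. The summit at 235128486 lay in intron 1 of the minus-strand gene, 351 bp from the start. Of the 31-base words in this peak 96.4% occurred once in the genome and none more than 2 times, against 100% once in the other 5 member peaks.

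BAG3, a co-chaperone that couples HSP70 to selective autophagy (ENSG00000151929), was the exception in place. Its peak spanned chr10:119667858-119668203 with 16 fragments (9.15 to 26.0), a background of 1.44, a fold enrichment of 6.98 and a q-value of 7.85e-09. The summit at 119668081 lay in intron 1 of the plus-strand transcript of 4 exons, 16701 bp downstream of the start and 11471 bp from the nearest transcript start. The table named TXNP1, not BAG3, as the nearest gene of this peak.

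**Figure D2:**
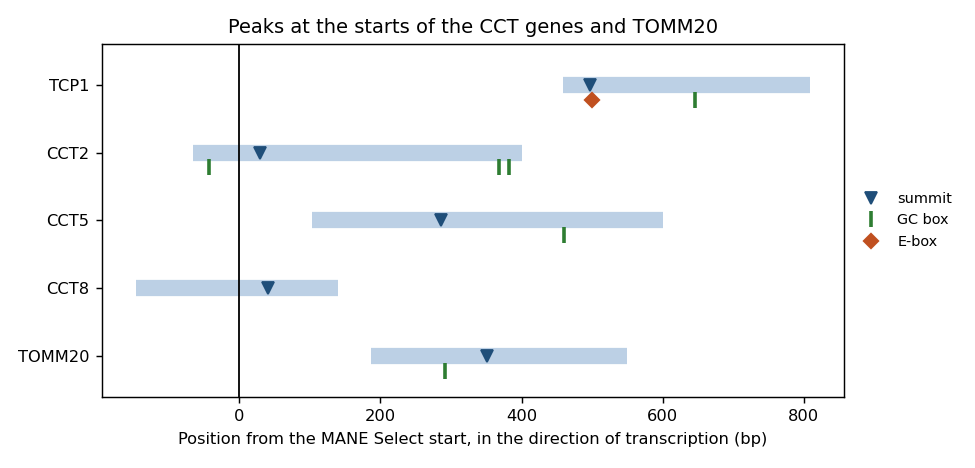
Position of the 5 member peaks near a start, in bp from the MANE Select start (horizontal axis, positive in the direction of transcription), with bars for the called peaks, triangles for summits, and marks for each E-box and GC box inside the peak. All 5 summits lie to the right of the start, from 29 bp for CCT2 to 497 bp for TCP1.

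As a set, the 5 peaks near a start had medians above the upper quartile of the peaks at starts, in pileup and in fold enrichment. Their pileups ran from 9 to 29 with a median of 16, against a median of 12 (quartiles 10 and 15, range 7 to 116) over the 815 peaks near protein-coding starts. Fold enrichment ran from 4.81 to 8.2 with a median of 6.74, against a median of 5.27 (quartiles 4.65 and 6.23, range 2.97 to 45.5). TCP1 lay between the lower quartile and the median in fold enrichment and CCT2 between the median and the upper quartile, whereas CCT5, CCT8 and TOMM20 lay above the upper quartile. In pileup TCP1 (9) lay below the lower quartile and CCT2 (13) between the median and the upper quartile. CCT8 (16), TOMM20 (18) and CCT5 (29) lay above it. The counting intervals of all member peaks except CCT5 reached below the median pileup of 12. The peak of CCT5 was also the most GC-rich, with a GC content of 67.7%, next to 67.5% for CCT2 and 58.8% for TOMM20.

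**Figure D3:**
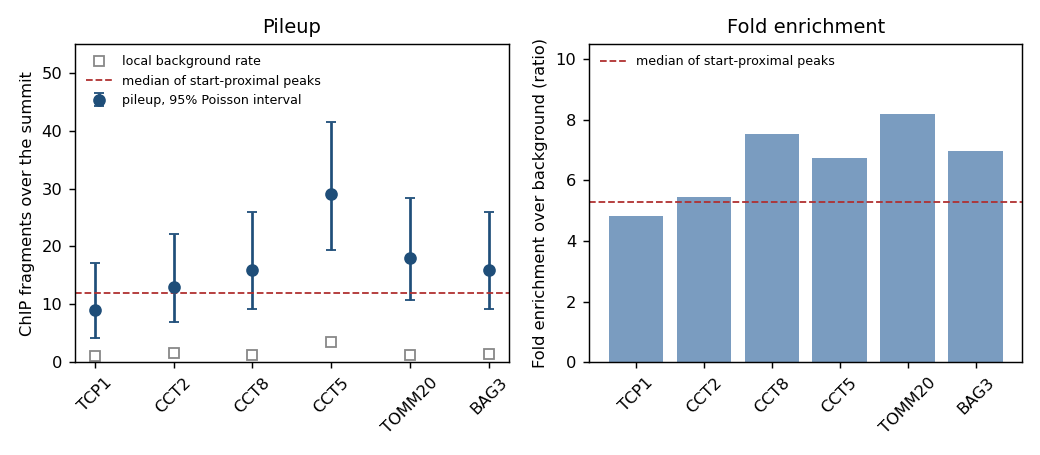
Left, pileup in ChIP fragments with exact Poisson 95% intervals (points) and the local background rate (squares), and right, fold enrichment as a ratio (bars), for the 6 member peaks, with dashed lines at the medians of the 815 peaks near protein-coding starts (12 fragments and 5.27). CCT5 has the highest pileup (29) and TOMM20 the highest fold enrichment (8.2) of the members.

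The mitochondrial chaperones and the translocases of the inner membrane had no summit near a start. The nearest summit was 5356 bp from PHB2, a prohibitin of the inner membrane, in a weak peak with 10 fragments and a fold enrichment of 5.15. Next came LONP1, the protease of the matrix, at 29802 bp. Over the 11 chaperones and proteases the median distance was 205018 bp. Over the 14 TIM genes it was 1116443 bp, and the lowest value was 79420 bp, for the import motor subunit PAM16. In both families each gene thus lay kilobases or more from the nearest summit, as most genes did: the median over all protein-coding genes was 471514 bp, and 18740 of 20033 lay more than 10000 bp away.

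The abundant cytosolic heat shock genes also lacked a peak. The nearest summit was 12317 bp from DNAJB1, the stress-induced HSP70 partner, 19962 bp from STIP1, which links HSP70 with HSP90, and 23230 bp from HSP90AB1, the constitutive HSP90. It was 5695261 bp from the inducible HSP90AA1 and 13657421 bp from HSPA8, the constitutive HSP70. Among members the nearest summit was more than 100000 bp away for 37 of 52, against 15661 of 20033 protein-coding genes.

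The absence of a peak means only that no position there passed the q-value of 0.05 in this library. The lowest pileup called anywhere was 7 fragments, also where the background rate was at its lowest value of 0.927, so a site covered by fewer fragments would not have been listed. The table holds no values outside peaks, and the level at members without a peak was not analysed here.

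HSPD1 and HSPE1, which encode the large and small parts of the mitochondrial chaperonin, are transcribed in opposite directions from one shared promoter on chromosome 2. Their MANE Select starts were 539 bp apart, at 197499840 for HSPD1 and 197500379 for HSPE1. A CACGTG stood at 197500357 to 197500362, 22 bp upstream of the HSPE1 start, and is in capitals in the HSPE1 stretch above. The nearest summit was nevertheless 205018 bp from HSPE1 and 205557 bp from HSPD1, in a peak with 15 fragments and a fold enrichment of 7.7. One other feature of this locus affected distances: an HSPD1 transcript outside MANE Select began 16897 bp from the MANE Select start.

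Shared promoters were common among the members. A divergent protein-coding neighbour, with its start within 1000 bp, was present at 14 of 52 members, HSPD1 and HSPE1 included. Of these 14, a start-proximal summit was present at 2 (14.3%), CCT5 beside ATPSCKMT and TCP1 beside MRPL18, a protein of the mitochondrial ribosome. Of the 38 members without such a neighbour 3 (7.89%) had one. Over protein-coding genes the shares were 198 of 1901 (10.4%) with a divergent neighbour and 754 of 18132 (4.16%) without. The members' shares stood in the same order, on few genes, with HSPD1 and HSPE1 counted separately although they share a promoter. That order rests on the weak TCP1 peak, which was lost at a q-value under 0.001, and without it the order of the members' shares turns around. The summits lay nearer to the chaperonin gene in both cases: the CCT5 summit was 678 bp upstream of the ATPSCKMT start, and the TCP1 summit 1362 bp upstream of the MRPL18 start.

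The remaining pairs had no summit near the member's start. They joined LONP1 with CATSPERD, PHB2 with EMG1, TIMM8B with SDHD (a subunit of respiratory complex II), TIMM9 with KIAA0586, TIMM17B with PQBP1, TIMM21 with FBXO15, TOMM70 with LNP1, CCT3 with TSACC, CCT6A with PSPH and BAG1 with CHMP5. The starts in these pairs stood between 117 bp (TIMM8B) and 689 bp (TIMM21) apart.

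The E-box and the GC box were unevenly shared among the member peaks. Within 100 bp of the summit, CACGTG was present in 1 of the 5 peaks near a start, that of TCP1, where it began 1 bp from the summit. Of all 815 peaks near protein-coding starts 213 held it there (26.1%, 23.2 to 29.3%). GGGCGG was present in 3 of 5, beginning 50 bp upstream of the summit in TCP1 (outside the called peak), 74 bp upstream in CCT2 and 62 bp upstream in TOMM20, against 585 of 815 (71.8%, 68.6 to 74.8%). The longer GC box GGGGCGGGG, which contains GGGCGG, was present in 1 of 5, that of CCT2, against 170 of 815 (20.9%). The intronic BAG3 peak held GGGCGG beginning 10 bp and CACGTG beginning 20 bp from its summit.

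CCT5 and CCT8 held neither motif within 100 bp of the summit. In the whole called peak CCT5 had 1 GGGCGG, 458 bp downstream of the start, and CCT8 had none. Promoter motifs of other factors were also sought there. CCAAT was present in 0 of 5 within 100 bp, against 118 of 815 (14.5%). The heat shock arrangements GAANNTTC and TTCNNGAA, a pair of inverted units of the element bound by HSF1, were both present in 0 of 5, against 19 of 815 (2.33%) and 24 of 815 (2.94%). Over the whole called peaks, CCT8 had 1 CCAAT, CCT2 had 1 GAANNTTC and TOMM20 had 2 TTCNNGAA. Each motif was searched on both strands, and a match says only that these letters are present.

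The E-box was then counted at the gene starts themselves. In the RefSeq promoter windows of GRCh38.p14, 250 bases before to 50 after each start, 46 of 52 members had a window. CACGTG was present in those of 7 of 46 members (15.2%), against 10.9% of 15345 protein-coding genes and 7.26% of all 35116 windows. All 7 were mitochondrial: HSPD1, HSPE1, LONP1 and HSPA9, the mitochondrial HSP70, among the chaperones and proteases (4 of 8), TIMM8A and TIMM10 among TIM (2 of 13) and TOMM20 among TOM (1 of 7). That was 7 of 28 mitochondrial genes (25%) and 0 of 18 cytosolic genes. GRPEL1, CLPP, PHB, TIMM8B, TOMM5 and CCT6A had no window.

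Of these 7 genes, TOMM20 had a summit near the start, and even there the CACGTG, 168 bp upstream of the start, lay away from the summit at 351 bp downstream. The others had their nearest CACGTG 1 bp upstream of the start (TIMM10), 19 bp upstream (HSPA9), 22 bp upstream (HSPE1), 28 bp downstream (TIMM8A) and 49 bp upstream (LONP1), with no summit within 1000 bp. For HSPD1 the CACGTG nearest to the MANE Select start was 232 bp downstream of it, beyond a window at that start. The windows were set at RefSeq starts, 59 windows for 46 members, which need not be the MANE Select start. An E-box in this window was thus present in members without a called peak, and 5 of the 6 members with a peak entry, TCP1, CCT2, CCT5, CCT8 and BAG3, had none in it. The window does not cover every summit, however. TCP1 and BAG3 had a CACGTG beginning 1 bp and 20 bp from their summits, outside the window.

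In a wider window the groups were closer. CACGTG occurred within 1000 bp of the start in 31 of 52 members (59.6%), made up of 21 of 33 mitochondrial genes (63.6%) and 10 of 19 cytosolic genes (52.6%), against 5858 of 20033 protein-coding genes (29.2%). Over protein-coding genes, 8.45% of those with the E-box had a summit near the start, against 3.22% of those without. Over members the order was the other way: 2 of 31 with it (6.45%, TOMM20 and TCP1) and 3 of 21 without it (14.3%, CCT2, CCT5 and CCT8). The members' counts are small, and no test was made. GGGCGG in the same window was near universal, in 50 of 52 members (96.2%) and 81.8% of protein-coding genes.

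Heat shock arrangements were most frequent at the genes of the HSP90 and HSP70 systems. Either arrangement was present in the promoter windows of 15 of 46 members (32.6%), against 14.9% of protein-coding genes, and in 7 of 11 genes of the HSP90 and HSP70 systems (63.6%), 3 of 7 CCT genes, 3 of 8 mitochondrial chaperones and proteases, 1 of 13 TIM and 1 of 7 TOM genes. Of the 15 holders, CCT2 and TCP1 had a summit near the start. GGGCGG was present in the windows of 35 of 46 members (76.1%), against 65.1% of protein-coding genes, with 20 of 28 mitochondrial and 15 of 18 cytosolic genes.

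**Figure D4:**
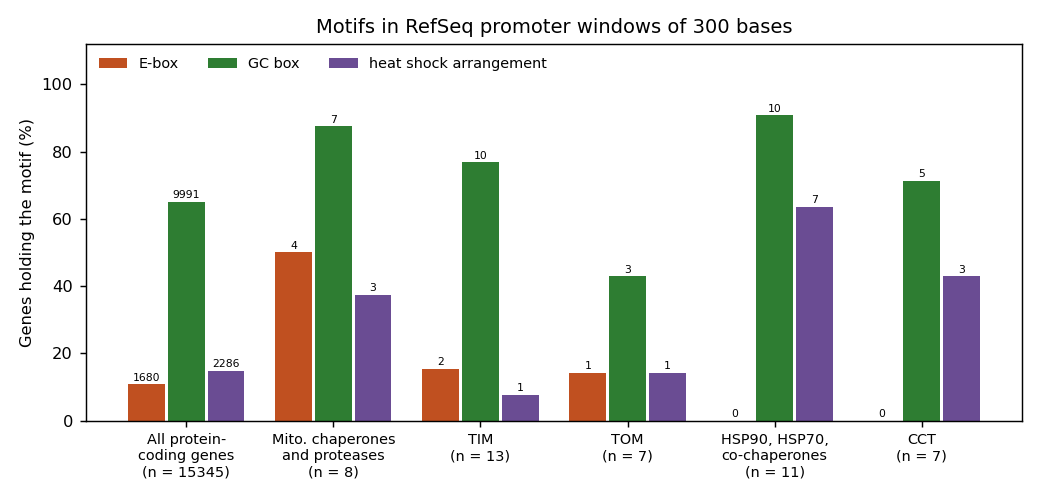
Share of genes in percent (vertical axis) whose RefSeq promoter window of 300 bases holds the E-box, the GC box or either heat shock arrangement, for all protein-coding genes and each member family (horizontal axis), with the number of genes above each bar. The E-box is present in 4 of 8 mitochondrial chaperones and proteases and in no CCT, HSP90 or HSP70 system gene with a window.

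A list of 70 further genes of the same processes, none of them a member, had 4 with an entry (5.71%, 2.24 to 13.8%) and 3 with a promoter entry (4.29%, 1.47 to 11.9%), with the backgrounds of 6.18% and 2.06% inside these intervals. The promoter entries fell on genes of both compartments. AFG3L2, a subunit of the inner membrane m-AAA protease, had a peak at chr18:12377173-12377826 with 22 fragments (13.8 to 33.3), a fold enrichment of 7.73 and its summit 359 bp upstream of the start. A CACGTG and a GGGCGG, the latter within a GGGGCGGGG, lay within 100 bp of that summit. Its partner subunit SPG7 had a peak at chr16:89508183-89508393 with 15 fragments (8.4 to 24.7), a fold enrichment of 4.56 and its summit 169 bp upstream. PTGES3, the HSP90 co-chaperone p23, had 11 fragments (5.49 to 19.7) at chr12:56688247-56688720, a fold enrichment of 5.32 and its summit 337 bp upstream. SPG7 and PTGES3 held neither CACGTG nor GGGCGG within 100 bp of the summit. Both subunits of that protease thus had a promoter entry, although the nearest gene listed for the SPG7 peak was AC092123.1. None of the 11 mitochondrial chaperones and proteases among the members had one (at most 25.9%), and that interval holds the background of 2.06%. The entry without a promoter label was that of DNAJB4, an HSP70 partner, in a peak also labelled as promoter of FUBP1 and GIPC2.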

How the data were processed

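ChIP-seq of CAL27 cells with lentiviral myc-KLF7 was analysed as 1 ChIP and 1 input library, grouped by their labels. According to the methods, the authors trimmed reads with Trimmomatic, mapped them with BWA, removed PCR duplicates with Samtools and called peaks with MACS2 at default parameters and a q-value of 0.05. Per the labels the build was hg38, and 1369 of 1381 gene identifiers in the table were found in GENCODE v44, each on the same chromosome, 818 of them with the same gene start. Pileup, a signal in the deposited table, counts the ChIP fragments covering a summit. Fold enrichment as deposited is a ratio of (pileup + 1) to (background + 1), and was solved for the background rate. The deposited −log10 q of each peak came from the peak caller and compares 2 libraries, not conditions, and its −log10 p was not used. The table gives no read totals, and 0 columns of per-sample values were left unused.

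The members, gene lists, motifs and settings were chosen with earlier results of these data known. Every member with a peak entry was named with its values, members without one by group with examples, and of the 70 further genes those with a promoter entry. DNAJB4 was named after its values were seen, and so were the members without an entry whose distances or motifs are given. Backgrounds were exact GENCODE v44 symbols, which miss genes listed under older symbols, and for distances 20033 protein-coding genes, of which 19061 had a MANE Select start and the rest took the outermost gene start. The MANE Select distance was chosen after the data were seen. PHB is PHB1 in GENCODE v44. Sequences came from GRCh38 and promoter windows from RefSeq (59 windows of 46 members, all equal to the genome). Motifs near summits were searched in peaks on assembled chromosomes. Word uniqueness was counted over 31-base words on both strands. Intervals are 95% Wilson intervals for shares and exact Poisson intervals for pileups, and they cover counting error only. Scripts were tested on simulated data. With 1 library per group no test was made. The alternatives were a stricter q-value, a minimum fold enrichment or pileup, and other symbols, windows and starts. The study's other experiments were not analysed here. The software was numba 0.67.0, pysam 0.24.0, scipy 1.17.1, pandas 2.3.3, numpy 2.4.6 and matplotlib 3.10.9 under Python 3.11.15.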

Additional observations from a re-analysis of the deposited data

How the results depend on the processing

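Of 55 alternative values for 11 results, 52 stayed within 1.5 times the reported count or within its interval or spread, and 3 did not. The 52 include stricter filters on promoter entry counts that were already 0, for all, mitochondrial and cytosolic members. Those values could not change, so the tally overstates how stable the results were. The count of members with a promoter went from 0 by the table's label to 5 with a summit within 1000 bp or within 2000 bp of a gene start, since all 5 summits lie downstream of the start. GGGCGG in the member peaks near a start went from 3 of 5 to 1 within 50 bp of the summit, and to 4 within 200 bp or anywhere in the peak. The TCP1 peak stayed at a q-value under 0.01. It was removed at a q-value under 0.001, a fold enrichment of at least 5 or a pileup of at least 10. Without it, 5 members had an entry and 4 a summit near the start. Counting the nearest gene of each peak alone removed BAG3 and left 5 members. The median fold enrichment of the 5 peaks near a start moved from 6.74 to 7.13 with a pileup of at least 10, and the median pileup from 16 to 17 with a fold enrichment of at least 5. The settings planned for member promoter peaks gave no value, because no member had a promoter entry, and were applied to the peaks near a start after the data were seen. No paired analysis was possible because there is 1 library per group and the result comes from no test. No peak with fewer than 7 fragments was listed, and whether read depth set that limit was not tested. A single ChIP library gives no spread between replicates.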
